A study of Mus musculus with 5 samples.

Results

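The myogenic regulatory factors Myf5, Myod1, Myog and Myf6 were read in sorted fetal muscle cells of mice labelled as conditional knock-outs of Notch1 or Notch2 in the Pax7 lineage, and in their controls. They were chosen by name: the rows of the deposited table whose gene name is Myf5, Myod1, Myog or Myf6. All 4 factors had a row among 27179 rows, of which 25873 carry a gene name, and all 4 were among the 11543 genes tested. In the 2 libraries labelled Notch2 cKO, Myog and Myod1 stood above both wild-type libraries, as did 28.3% of all genes tested. Myf5 stood below both, as did 9.44%. The ratio of Myog to Myf5 was 2.08 times that in wild type (exact permutation p = 0.333, the smallest possible). Of the ratios of a factor to another gene, 49.1% did not overlap between these groups. None of these differences in single factors passed the test over all genes.

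The factors are related transcription factors with a basic helix-loop-helix domain, which bind the E-box (CANNTG, where N is any base) as partners of E proteins such as Tcf3 and Tcf4. Myf5 and Myod1 act early and commit cells to the muscle lineage, Myog drives the differentiation of committed myoblasts, and Myf6 (also called MRF4) acts both early and late, with most of its later expression in muscle fibres. In muscle progenitors, Notch receptors work through Rbpj to raise Hes and Hey repressors, which hold back Myod1 and Myog. Id proteins, which lack the DNA-binding region, take up E proteins and so inhibit the factors.

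The cells came from limb muscle of C57BL/6J fetuses on embryonic day E16.5. All groups carry Pax7-CreER and Rosa-tdTomato, and all mothers received tamoxifen by mouth at 240 mg per kg for 2 days from E12.5. The 2 wild-type (WT) libraries have no floxed Notch allele. The single Notch1 cKO library adds Notch1f/f, and the 2 Notch2 cKO libraries add Notch2f/f, where cKO stands for conditional knock-out. The CreER is made where Pax7 is active, so tdTomato marks Pax7-expressing cells and their descendants, and a sort of mononuclear cells leaves out formed fibres. Whether the libraries of a group come from separate fetuses or litters is not stated in the labels. The p-values therefore measure only the spread between these libraries, which may be technical. Libraries are named by group and by the tag in the column name (Em2, Em3, Em4, Em8).

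The libraries held 20740000 to 28830000 reads, as recovered from the deposited values. Notch1 stood at 2.33 RPKM (reads scaled by gene length and library total) in Notch1 cKO Em8, against 7.26 and 13.5 RPKM in WT Em2 and WT Em4. For Notch2 the values were 2.40 and 4.17 RPKM in WT, and 3.35 and 2.03 under the Notch2 cKO label. A gene-level value pools all exons of a floxed gene, so for Notch2 it checks the label in neither direction. Of the muscle progenitor markers, 9 of 9 reached 1 RPKM in at least 1 library, as did 7 of 7 markers of committed myoblasts. Of 4 endothelial markers, Pecam1, Cdh5 and Kdr stayed under 1 RPKM in all 5 libraries, and Tek stood at 2.98 to 5.11 RPKM. Of 4 markers of blood cells, Ptprc and Csf1r stayed under 1 RPKM, while Cd68 stood at 5.13 to 9.64 and Lyz2 at 0.891 to 11.4 RPKM.

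The start regions of Myog and Myf5 are shown because these factors stood on opposite sides of WT in Notch2 cKO. Each sequence is the 250 bases before the RefSeq start on GRCm38.p6, 5′ to 3′ on the gene's own strand, and the table of promoters used held an entry for these 2 factors. Capitals mark matches to the motifs searched on both strands: the E-box CANNTG, the MEF3 site TCAGGTT, and the MEF2 core written loosely as CTANNNNTA, with any base in its middle. The motifs and the letters used for MEF2 were chosen after the sequences had been seen.
Myog, chr1:134289754-134290003, plus strand: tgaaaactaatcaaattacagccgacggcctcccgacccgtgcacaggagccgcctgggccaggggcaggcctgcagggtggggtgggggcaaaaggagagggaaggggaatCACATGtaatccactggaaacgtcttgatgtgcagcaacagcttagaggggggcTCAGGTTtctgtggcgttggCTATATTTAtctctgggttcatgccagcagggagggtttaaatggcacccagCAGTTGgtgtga
Myf5, chr10:107486135-107486384, minus strand: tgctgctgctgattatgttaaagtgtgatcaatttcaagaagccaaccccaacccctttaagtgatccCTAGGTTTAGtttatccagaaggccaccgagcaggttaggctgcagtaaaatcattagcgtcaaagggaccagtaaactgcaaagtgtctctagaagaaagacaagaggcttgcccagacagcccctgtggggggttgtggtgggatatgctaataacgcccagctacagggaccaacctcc
In Myog the matches begin 138 bases (E-box CACATG), 84 bases (MEF3), 64 bases (MEF2 core CTATATTTA) and 12 bases (E-box CAGTTG) before the RefSeq start. The gene span of Myog given below begins 15 bases upstream of that start, so the E-box CAGTTG lies inside that span. Over all 32817 promoters of this length, 31.8% held at least 2 E-box matches, 19.0% a match to CTANNNNTA and 3.50% the MEF3 letters. In Myf5 the run of capitals holds 2 overlapping matches to CTANNNNTA, beginning 182 and 181 bases before the start. They are 1 stretch read on opposite strands and counted 2 times, and 5.59% of promoters held at least 2 matches counted so. The free middle letters include G or C in Myf5 and are only A or T in the Myog match. The E-box and MEF3 letters were not found in this Myf5 window. The letters TGGGAA, which Rbpj binds, were found in neither window and in 21.6% of promoters. A match is a run of letters and not a measured binding site.

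Myog lies on GRCm38 chromosome 1 (ENSMUSG00000026459.5, 134289989 to 134292548, plus strand) and Myod1 on chromosome 7 (ENSMUSG00000009471.4, 46376474 to 46379099, plus strand). Myf5 (ENSMUSG00000000435.1, 107482908 to 107486134) and Myf6 (ENSMUSG00000035923.4, 107492853 to 107494737) lie on the minus strand of chromosome 10, with 6718 bases and no annotated gene between them. Each of the 4 genes has 3 exons, and no other annotated gene overlaps any of them. In this annotation the exons therefore share no bases with another gene. The gene models behind the RPKM values are not given. Lengths recovered from those values matched the annotated exon bases for Myf5 (2083). They were 1480 against 1495 for Myog, 1854 against 1861 for Myod1 and 1248 against 1263 for Myf6.

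Myog, which switches committed myoblasts to differentiation, was the most abundant factor in every library. It stood at 1053 RPKM in WT Em2, 1272 in WT Em4, 944 in Notch1 cKO Em8, 1655 in Notch2 cKO Em3 and 1737 in Notch2 cKO Em4. Both Notch2 cKO libraries lay above both WT libraries, as for 28.3% of all genes tested, and the Notch1 cKO library was the lowest of the 5. Between 35705 and 74104 reads stood behind these values, and Myog ranked from 24 (Notch2 cKO Em4) to 123 (WT Em2) among named genes by RPKM.

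Myod1, the factor that commits cells to the muscle lineage and can turn fibroblasts into muscle, came next in every library. It stood at 135 RPKM in WT Em2, 167 in WT Em4, 109 in Notch1 cKO Em8, 179.5 in Notch2 cKO Em3 and 188 in Notch2 cKO Em4. The groups followed the same order as for Myog without overlap, although WT Em4 lay closer to the Notch2 cKO libraries than to WT Em2. Of all genes tested, 28.3% were higher in Notch2 cKO than in WT without overlap. Its reads ran from 5176 to 10061.

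Myf5, the earliest of the factors in development and a marker of progenitors, ran the other way. It stood at 54.3 RPKM in WT Em2, 50.4 in WT Em4, 44.8 in Notch1 cKO Em8, 32.5 in Notch2 cKO Em3 and 41.8 in Notch2 cKO Em4. Both WT libraries were the highest and both Notch2 cKO libraries the lowest, with Notch1 cKO Em8 between them. Of all genes tested, 9.44% were lower in Notch2 cKO than in WT without overlap. The Notch2 cKO pair lay further apart than the WT pair, with SDs of 6.57 and 2.77 RPKM (n = 2 each).

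Myf6 was the scarcest, at 2.46 RPKM in WT Em2, 3.19 in WT Em4, 2.35 in Notch1 cKO Em8, 2.16 in Notch2 cKO Em3 and 3.25 in Notch2 cKO Em4. The Notch2 cKO pair spanned the WT pair, and the factor rested on 56 to 117 reads a library. At that depth the 95% Poisson intervals of all 5 libraries overlapped. Without molecular identifiers, such intervals cover counting error alone.

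**Figure D1:**
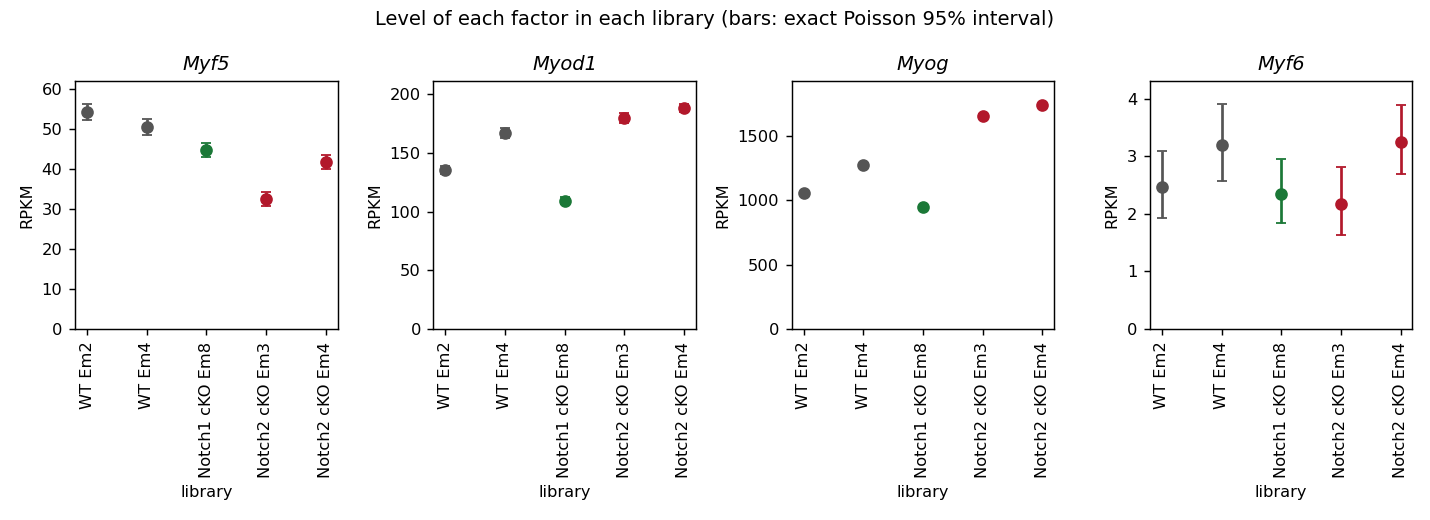
Level of each factor in RPKM (linear axes from 0) in each library, with 1 point per library and bars for the exact Poisson 95% interval of its reads. Grey points are WT, green Notch1 cKO and red Notch2 cKO. Myog and Myod1 are highest and Myf5 lowest in the 2 Notch2 cKO libraries, while Myf6 shows no such split.

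The order Myog, Myod1, Myf5, Myf6 held in all 5 libraries, and no pair of neighbours in it overlapped: the lowest Myog value (944 RPKM) stood above the highest Myod1 value (188), the lowest Myod1 value (109) above the highest Myf5 value (54.3), and the lowest Myf5 value (32.5) above the highest Myf6 value (3.25). Summed, the factors stood at 1245 and 1493 RPKM in WT, 1101 in Notch1 cKO Em8, and 1870 and 1970 RPKM in Notch2 cKO. Myog made up 84.6% and 85.2% of that sum in WT, 85.8% in Notch1 cKO, and 88.5% and 88.2% in Notch2 cKO. The share of Myf5 was 4.36% and 3.38% in WT, 4.07% in Notch1 cKO, and 1.74% and 2.12% in Notch2 cKO. In RNA from a pool of cells, fewer cells of a type and less RNA per cell cannot be told apart, so a share here is one of transcripts.

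The libraries labelled Notch2 cKO were compared with WT for each of the factors. Means were 1696 ± 57.6 against 1163 ± 155 RPKM for Myog, 184 ± 6.15 against 151 ± 22.4 for Myod1, 37.1 ± 6.57 against 52.4 ± 2.77 for Myf5 and 2.71 ± 0.770 against 2.83 ± 0.516 for Myf6 (SD, n = 2 each). The ratios of these means were 1.46 for Myog, 1.22 for Myod1, 0.709 for Myf5 and 0.958 for Myf6. Fold changes were then tested on the log2(RPKM + 1) scale, on which the median over all genes was 0.14. For Myog the log2 fold change was 0.55 (SE 0.34, limma adjusted p = 0.734), for Myod1 0.29 (SE 0.27, limma adjusted p = 0.827) and for Myf5 −0.50 (SE 0.26, limma adjusted p = 0.696). For Myf6 it was −0.05 (SE 0.32, limma adjusted p = 0.978).

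None of the 4 factors passed limma's adjusted threshold of 0.05 in this comparison, against 0.537% of all genes tested, and none had an unadjusted p under 0.05, against 7.63%. The 95% interval ran from −0.12 to 1.22 for Myog, from −0.24 to 0.82 for Myod1 and from −1.02 to 0.03 for Myf5, so each includes 0. Taken relative to the median of all genes, the differences were 0.41 for Myog, 0.15 for Myod1 and −0.63 for Myf5. Myog and Myod1 were higher without overlap between the groups, as were 28.3% of all genes, and Myf5 was lower without overlap, as were 9.44%. With median-of-ratios scaling, under which the median of all genes was −0.04, the values were 0.33 for Myog, 0.07 for Myod1 and −0.71 for Myf5. Without WT Em4, Myog passed (0.69, limma adjusted p = 0.0385); over the alternatives tried its adjusted p ran up to 1.

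**Figure D2:**
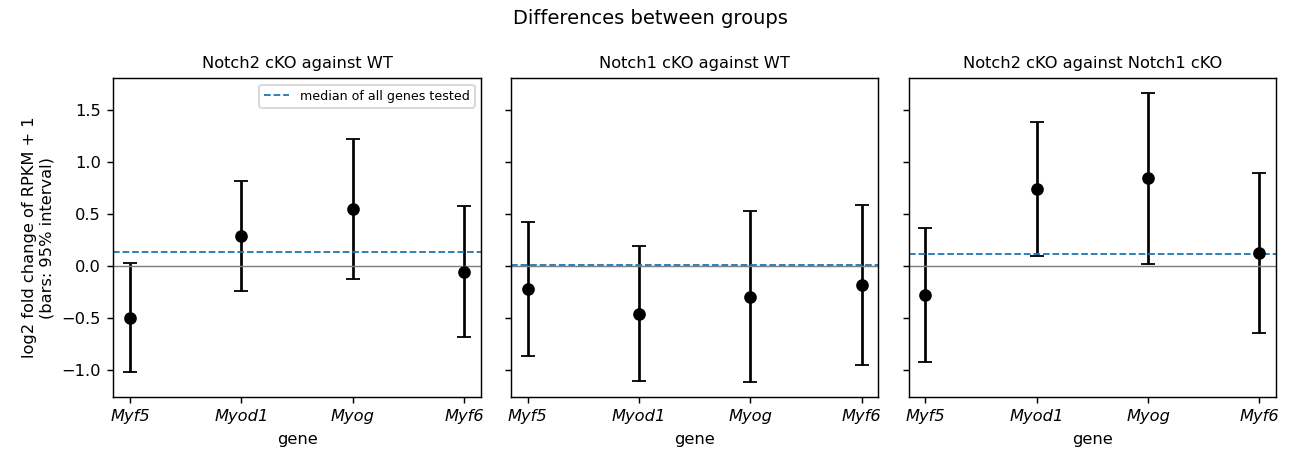
Log2 fold change of RPKM + 1 for each factor in the 3 comparisons (points), with 95% intervals from the limma fit (bars) and the median over all genes tested (dashed line). Every interval includes 0 except those of Myod1 and Myog in Notch2 cKO against Notch1 cKO, where neither adjusted p passed.

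Column names also carry a run of digits whose meaning no source used here gives. Notch2 cKO Em3 shares its digits with Notch1 cKO Em8, Notch2 cKO Em4 shares another run with WT Em4, and WT Em2 has a run of its own. Between Notch2 cKO Em4 and WT Em4, the difference on the log2(RPKM + 1) scale was 0.45 for Myog, 0.17 for Myod1 and −0.27 for Myf5. The signs were those of the pooled comparison, with smaller sizes. This is 1 library against 1 and has no replicate check.

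The sums of the myofibre, erythroid and adipocyte markers did not overlap between Notch2 cKO and WT. The summed level of the 6 myofibre markers (Acta1 the most abundant) was 160 and 194 RPKM in WT, 229 in Notch1 cKO, and 289.7 and 362 RPKM in Notch2 cKO. The 5 erythroid markers in the table (Hba-a2 the most abundant) summed to 713 and 846 RPKM in WT, 1250 in Notch1 cKO, and 366 and 312 in Notch2 cKO. Of these, Hba-a1 (log2 fold change −1.16, limma adjusted p = 0.018) and Hba-a2 (−1.34, limma adjusted p = 0.00459) were lower in Notch2 cKO than in WT. The 4 adipocyte markers (Fabp4 the most abundant, Plin1 under 1 RPKM throughout) summed to 68.8 and 33.7 RPKM in WT, 61.2 in Notch1 cKO, and 103 and 85.3 in Notch2 cKO. Of these, Adipoq (1.25, limma adjusted p = 0.0349) and Cidea (1.26, limma adjusted p = 0.0316) rose in Notch2 cKO against WT, at levels of at most 5.36 RPKM. The 6 markers of dissociation and RNA quality (Fos the most abundant) summed to 848 and 988 RPKM in WT, 1236 in Notch1 cKO, and 1862 and 1013 in Notch2 cKO. Among them, Hspa1a (2.68, limma adjusted p = 4.59e-05) and Hspa1b (2.86, limma adjusted p = 5.41e-06) were higher in Notch2 cKO than in WT. Their high values, 120 and 165 RPKM, belonged to Notch2 cKO Em3 alone. In the remaining libraries Hspa1a stood at 2.11 to 7.92 RPKM and Hspa1b at 3.16 to 9.235 RPKM. The 7 markers of interstitial fibroblasts summed to 106 and 187 RPKM in WT, 269.8 in Notch1 cKO, and 182 and 296 in Notch2 cKO, with Twist2 under 1 RPKM throughout. The 6 tendon and cartilage markers summed to 128 RPKM in Notch2 cKO Em4, where Col2a1 stood at 55.4 RPKM, and to 45.3 to 66.9 RPKM in the other 4 libraries. The part of all these markers in the differences of the factors was not tested.

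Notch1 cKO was compared with the same WT libraries, so the 2 comparisons share their controls. All 4 factors were lower in Notch1 cKO Em8 than in both WT libraries, as were 26.1% of all genes. The log2 fold changes were −0.29 for Myog (SE 0.42), −0.46 for Myod1 (SE 0.33), −0.22 for Myf5 (SE 0.32) and −0.18 for Myf6 (SE 0.39), each with a limma adjusted p of 1. None of the 4 passed, against 0.0693% of all genes, and none had an unadjusted p under 0.05, against 1.85%. The 95% intervals all included 0, and the lower bounds were −1.12 for Myog, −1.10 for Myod1, −0.86 for Myf5 and −0.95 for Myf6. With 1 library, the group is assumed to vary like the others, and no WT library shares its digits, so the group and those digits cannot be told apart.

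The knock-outs were also set against each other, which tests the difference between them directly. The Notch2 cKO mean was 1.80 times the Notch1 cKO value for Myog and 1.68 times for Myod1, with both Notch2 cKO libraries above it, as for 47.7% of all genes. For Myf5 the ratio was 0.829, with both Notch2 cKO libraries below it, as for 25.2% of all genes. The log2 fold change was 0.84 for Myog (SE 0.42, limma adjusted p = 0.56) and 0.75 for Myod1 (SE 0.33, limma adjusted p = 0.501). For Myf5 it was −0.27 (SE 0.32, limma adjusted p = 0.868) and for Myf6 0.13 (SE 0.39, limma adjusted p = 0.96). None of the 4 passed the adjusted threshold, against 0.485% of all genes, and 2 of 4 (Myog and Myod1) had an unadjusted p under 0.05, against 8.66%.

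That call for Myog turned on which libraries entered the fit. Myog passed when only the libraries of the 2 knock-outs entered (0.84, limma adjusted p = 0.0259), without WT Em2 (limma adjusted p = 0.0269) and without WT Em4 (limma adjusted p = 0.0243); its adjusted p over the alternatives tried ran up to 0.9996. Between Notch2 cKO Em3 and Notch1 cKO Em8, which share digits, the difference was 0.81 for Myog, 0.71 for Myod1 and −0.45 for Myf5. These pairwise values are log2 differences of RPKM + 1 without a replicate check.

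Ratios between factors of the same library do not depend on how libraries are scaled to each other. Myog stood at 19.4 times Myf5 in WT Em2, 25.2 times in WT Em4, 21.1 times in Notch1 cKO Em8, 51.0 times in Notch2 cKO Em3 and 41.6 times in Notch2 cKO Em4. Both Notch2 cKO libraries lay well above the other 3, and Notch1 cKO Em8 fell between the WT libraries. The geometric mean in Notch2 cKO was 2.08 times that in WT, a log2 difference of 1.06 against SDs of 0.21 and 0.27 (n = 2 each). An exact two-sided permutation test of 2 against 2 libraries gave p = 0.333, the smallest it can give, and 0.333 after adjustment over the 6 ratios.

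The ratio of Myod1 to Myf5 split in the same way, at 2.49 and 3.31 in WT, 2.44 in Notch1 cKO, and 5.53 and 4.51 in Notch2 cKO. Its geometric mean in Notch2 cKO was 1.74 times that in WT. Ratios that share Myf5 are not independent of each other. Between Notch2 cKO Em4 and WT Em4, which share digits, the log2 difference was 0.72 for Myog to Myf5 and 0.45 for Myod1 to Myf5.

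The ratio of Myog to Myod1 was the steadiest of the 6 within a group. It stood at 7.79 in WT Em2, 7.62 in WT Em4, 8.64 in Notch1 cKO Em8, 9.22 in Notch2 cKO Em3 and 9.23 in Notch2 cKO Em4. The 95% counting intervals of the WT libraries (7.58 to 8.002 and 7.43 to 7.82) overlapped each other and not those of Notch2 cKO (8.99 to 9.46 and 9.04 to 9.42), with Notch1 cKO Em8 between the groups (8.39 to 8.90). The difference of 1.20-fold between Notch2 cKO and WT is smaller than that of the ratios to Myf5. The SDs on the log2 scale were 0.00077 in Notch2 cKO and 0.022 in WT (n = 2 each). The Notch2 cKO values lay closer together than the width of either counting interval, so this SD understates their error. The exact permutation p was again 0.333.

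Ratios to Myf6 rest on its few reads. Myog stood at 428 and 399 times Myf6 in WT, 401 in Notch1 cKO, and 765 and 534 in Notch2 cKO. Myod1 stood at 55.0 and 52.3 times Myf6 in WT, 46.5 in Notch1 cKO, and 83.0 and 57.9 in Notch2 cKO. Myf5 stood at 22.1 and 15.8 times Myf6 in WT, 19.0 in Notch1 cKO, and 15.0 and 12.8 in Notch2 cKO, and the counting interval of WT Em4 overlapped those of both Notch2 cKO libraries.

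In all, 6 of 6 ratios differed between Notch2 cKO and WT without overlap, where 49.1% of the ratios of a factor to another gene tested did so. Each of the 6 had an exact permutation p of 0.333. The 6 ratios are formed from the same 4 factors and are not independent, and those to Myf6 rest on its few reads. Notch1 cKO Em8 lay outside the range of the WT pair for 3 of 6 ratios, against 71% of such ratios, with exact permutation p of 0.333 to 1 over the 6. Between the knock-outs 6 of 6 ratios differed without overlap, against 74.6% of such ratios.

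**Figure D3:**
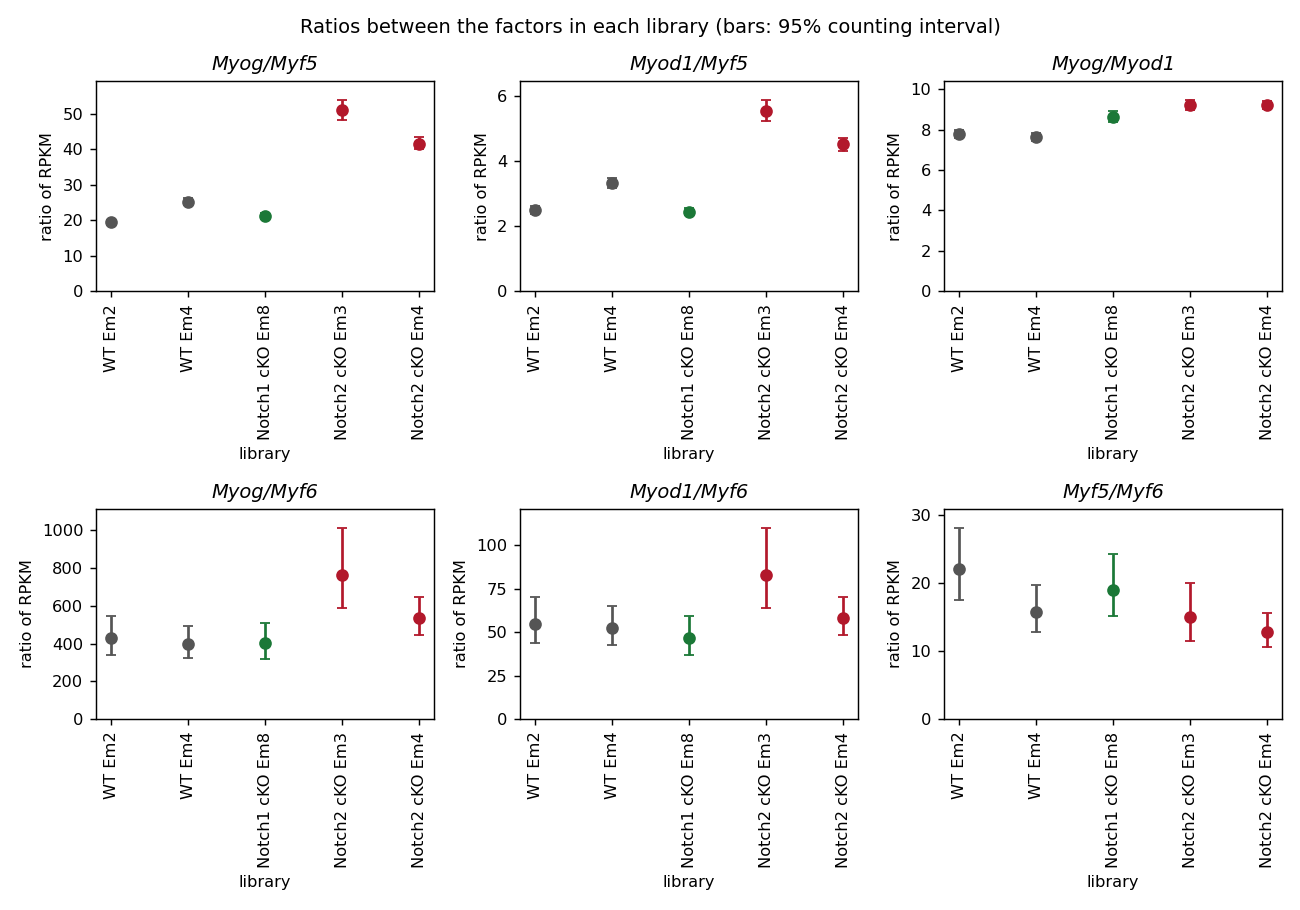
Ratios of RPKM between the factors in each library (linear axes from 0), with 1 point per library and bars for the 95% counting interval. The ratios of Myog and of Myod1 to Myf5 are highest in the 2 Notch2 cKO libraries (red), at 51.0 and 41.6 for Myog, while Notch1 cKO (green) has a ratio of Myog to Myf5 between those of the WT libraries (grey).

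Genes around the factors were counted from 3 lists: regulators upstream of the factors, their dimer partners and inhibitors, and their target genes. The lists were chosen with earlier results of these data known, and their genes were measured in the same libraries. Counts over a list are therefore a description with no test. In Notch2 cKO against WT, 46 of the 48 targets tested lay above a log2 fold change of 0. Their median was 0.37, where 68.1% of all genes lay above 0 with a median of 0.14. Under median-of-ratios scaling 37 of 48 lay above 0, with a median of 0.17 beside −0.04 for all genes. Without WT Em2 the median was 0.31 and without WT Em4 0.53. Of the 48, 1 passed limma's adjusted threshold, against 0.537% of all genes, and 14 had an unadjusted p under 0.05, against 7.63%.

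That target was Mybph, which binds myosin in the thick filament and stood at 5.87 and 10.7 RPKM in WT, 6.21 in Notch1 cKO, and 17.5 and 24.3 in Notch2 cKO. It rose by 1.27 on the log2(RPKM + 1) scale (SE 0.31, limma adjusted p = 0.0253). The limma adjusted p was 1 without WT Em2, 0.0674 without Notch2 cKO Em3 and 0.897 when Em4 of that group was left out, and 0.00511 to 1 over all alternatives. Unc45b, a chaperone of myosin, had a log2 fold change of 1.15 (limma adjusted p = 0.0975), and Actn2, the alpha-actinin of the Z-disc, one of 1.02 (limma adjusted p = 0.102).

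Of the 26 upstream regulators tested, 17 lay above 0 in Notch2 cKO against WT. Their median was 0.09, and none passed. An unadjusted p under 0.05 by limma was found for 2 of the 26, against 7.63% of all genes. The median turned to −0.09 under median-of-ratios scaling and to −0.06 without WT Em2, and was 0.34 without WT Em4. Mef2a, a MADS-box factor that works with the myogenic factors on muscle promoters, had the smallest p. It stood at 19.0 and 16.0 RPKM in WT, 12.9 in Notch1 cKO, and 34.3 and 31.6 in Notch2 cKO (log2 fold change 0.88, limma adjusted p = 0.185). The related Mef2c had a log2 fold change of 0.61 (limma adjusted p = 0.644). Pax7, the progenitor factor whose locus drives the CreER, stood at 9.90 and 11.96 RPKM in WT, 13.4 in Notch1 cKO, and 10.7 and 4.15 in Notch2 cKO (log2 fold change −0.61, limma adjusted p = 0.68). The low Pax7 value belonged to Notch2 cKO Em4 alone.

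Of the 30 dimer partners and inhibitors tested, 21 lay above 0 in the same comparison. Their median was 0.20, and none passed. An unadjusted p under 0.05 by limma was found for 5 of the 30, against 7.63% of all genes. Under median-of-ratios scaling and without WT Em2 the split was 15 of 30. Snai2, a repressor that competes for E-boxes, had a log2 fold change of 0.72 (limma adjusted p = 0.371). Carm1, an arginine methyltransferase and coactivator, had one of 0.88 (limma adjusted p = 0.375), with 19.97 RPKM in Notch2 cKO Em4 and 4.92 to 8.93 in the other Notch2 cKO library and WT. Rb1, which ends the cell cycle during differentiation, had one of 0.66 (limma adjusted p = 0.556).

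In Notch1 cKO against WT none of the 26, 30 and 48 genes of these lists passed. Of the 30 partners and inhibitors, 5 had an unadjusted p under 0.05 by limma, against 1.85% of all genes. None of the upstream regulators or targets had one. Of the targets 17 of 48 lay above 0, of the partners and inhibitors 12 of 30 and of the upstream regulators 12 of 26, where 51.5% of all genes did. The medians were −0.09, −0.04 and −0.03, beside 0.01 for all genes. Without WT Em4 these medians were 0.08, 0.12 and 0.21, so their sign hung on that library. Hes1, the Notch-induced repressor, had a log2 fold change of −1.25 (limma adjusted p = 0.159) and Id1 one of −1.02 (limma adjusted p = 0.828). Both were also among the 9 of the 30 below 0 in Notch2 cKO against WT. There the log2 fold change was −0.59 for Hes1 (limma adjusted p = 0.582) and −0.57 for Id1 (limma adjusted p = 0.654). Each lay below both WT libraries in both Notch2 cKO libraries, as did 9.44% of all genes. Snai1, a relative of Snai2, stood at 2.47 and 3.001 RPKM in WT and 0.788 in Notch1 cKO (−1.06, limma adjusted p = 1). Eya2, a transcriptional cofactor, had a log2 fold change of −0.73 and the homeobox factor Meox2 one of 0.57, each with a limma adjusted p of 1. Among targets the smallest p belonged to the receptor subunit Chrna1 (−0.62), the neuregulin receptor Erbb3 (−0.71) and the creatine kinase Ckm (0.56), each with a limma adjusted p of 1.

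In Notch2 cKO against Notch1 cKO, 41 of 48 targets, 23 of 30 partners and inhibitors and 15 of 26 upstream regulators lay above 0, where 61.8% of all genes did. The medians were 0.44, 0.26 and 0.10, beside 0.12 for all genes. Of the 48 targets 12 had an unadjusted p under 0.05 by limma, against 8.66% of all genes, and 2 passed the adjusted threshold, against 0.485%. These were Mybph, which rose by 1.59 on the log2(RPKM + 1) scale (limma adjusted p = 0.0219) and Casq2, a calcium store protein of muscle, which rose by 1.52 (limma adjusted p = 0.0473). Both calls were lost without Notch2 cKO Em4, with limma adjusted p of 0.702 and 0.9996, and that of Casq2 also without Notch2 cKO Em3 (limma adjusted p = 0.0645). Over all alternatives the limma adjusted p ran from 0.00762 to 0.744 for Mybph and from 0.0112 to 0.9996 for Casq2. No gene of the other lists passed. Of the 30 partners and inhibitors 5, and of the 26 upstream regulators 6, had an unadjusted p under 0.05 by limma. Snai1 had a log2 fold change of 1.42 (limma adjusted p = 0.0654), Mef2a one of 1.29 (limma adjusted p = 0.0539) and Six4 one of 0.91 (limma adjusted p = 0.495).

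**Figure D4:**
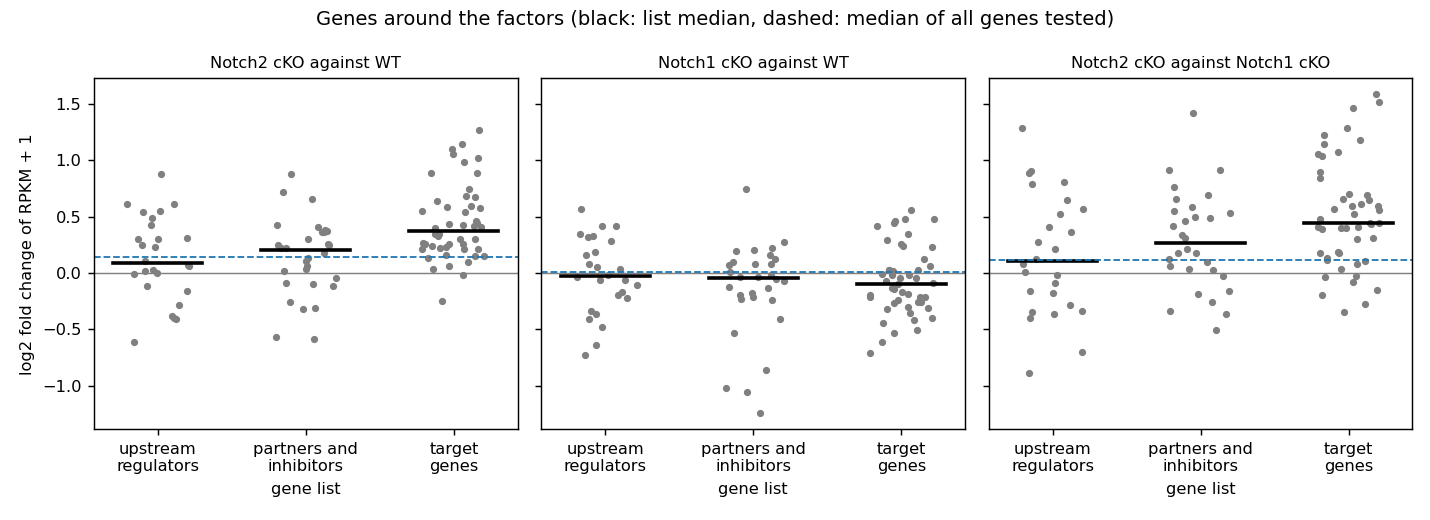
Log2 fold change of RPKM + 1 of every tested gene of the 3 lists in the 3 comparisons (grey points, spread sideways for legibility), with the list median (black bar) and the median of all genes tested (dashed line). The median of the target genes lies above the dashed line in Notch2 cKO against WT (0.37 beside 0.14) and in Notch2 cKO against Notch1 cKO (0.44 beside 0.12).

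The profiles over the 5 libraries were compared by the Euclidean distance between centred log2(RPKM + 1) values. Among the factors, Myod1 and Myog lay closest (0.26), followed by Myf5 and Myf6 (0.55), and Myf5 and Myog lay farthest apart (1.22). The search for like profiles took in 5753 genes whose mean reached 10 RPKM. Those nearest to Myf5 were Nnmt (0.14), Nmral1 (0.15) and Phb (0.16). Those nearest to Myod1 were Osgepl1 (0.03), Spg7 (0.10) and Ska3 (0.12), and those nearest to Myog were Tsr1 (0.12), Chuk (0.13) and Gtf2h1 (0.13). Those nearest to Myf6 were Nutf2-ps2 (0.05), Eif3l (0.08) and Dnpep (0.10). Distances over 5 libraries are a description with no test.

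**Figure D5:**
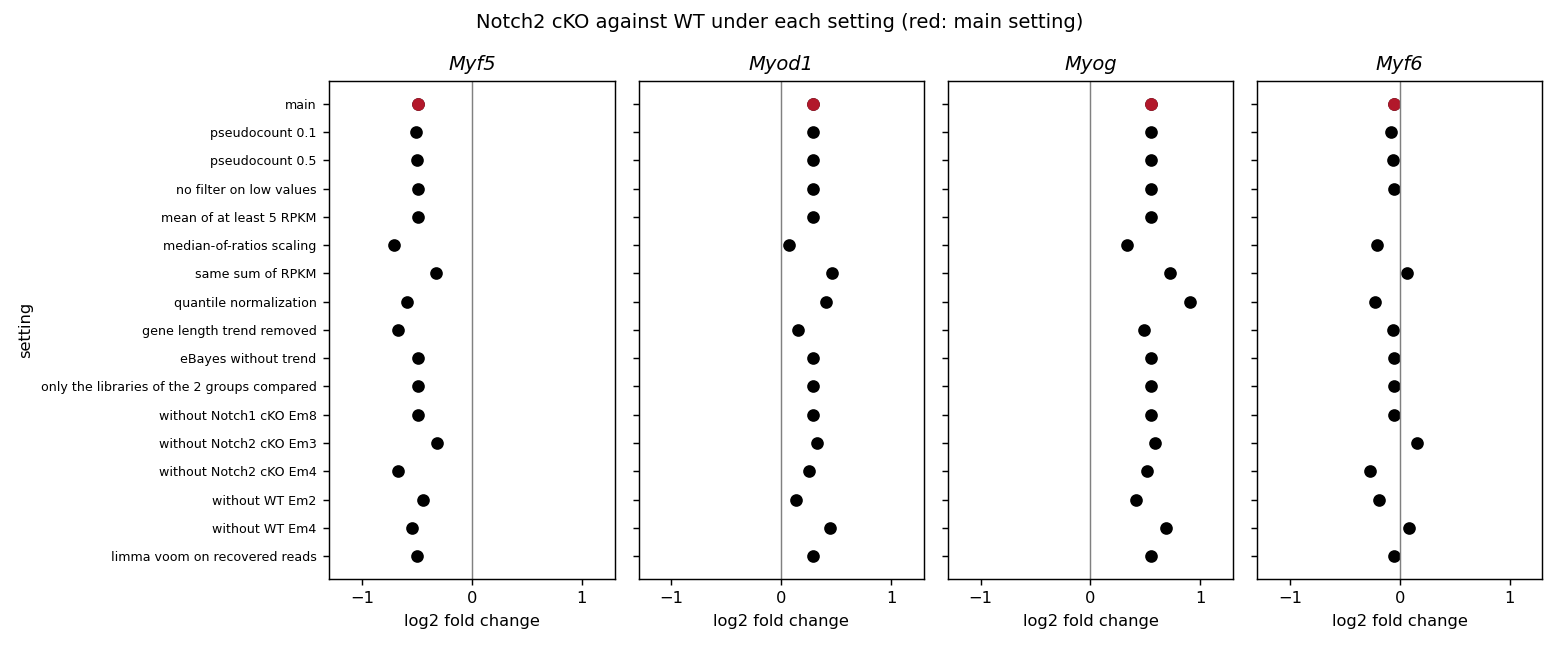
Log2 fold change of each factor in Notch2 cKO against WT under the setting of the report (red) and each alternative (black), with 1 row per setting. Myf5 stays below 0 (−0.71 to −0.32) and Myog above it (0.33 to 0.90) in all of them, Myod1 runs from 0.07 to 0.46, and Myf6 lies on both sides of 0; its mean is under 5 RPKM, so that row is empty for it.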

How the data were processed

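RNA of tdTomato-positive, lineage-negative mononuclear cells was made into SMART-Seq v4 libraries and read as paired ends, per the labels' protocols. Per the file headers, the authors deposited RPKM values per gene. Build mm10 and bcl2fastq 2.20.0 stand in the submitters' processing notes; aligner, counter and annotation: not given in the sources used here. Rows without a gene name (1306) were left out. Column names give the group and no replicate number.

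Whole reads and library totals were recovered from the steps between RPKM values: 99.98% of the genes tested gave whole reads in every library within a tolerance of 0.02, summing to at most 99.2% of the totals. Reads serve for the intervals (95%, exact, counting error only) and for limma voom on the reads, which called 0, 2 and 13 genes in the 3 comparisons in the order of the report (808, 163 and 873 at an unadjusted p under 0.05).

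Groups were compared with limma 3.58.1 under R 4.3.3 (lmFit, eBayes with a trend) on log2(RPKM + 1) over the 11543 genes whose mean reached 1 RPKM, all 5 libraries in 1 fit, 1 mean per group, Benjamini-Hochberg adjustment over all genes and a threshold of 0.05; 2 residual degrees of freedom were joined by 103.8 prior ones. Fold changes on this scale understate those of low genes. Ratios of RPKM were compared by exact permutation over libraries. The script was tested on simulated data. Named were the 4 factors, the targeted genes, the 3 genes of smallest p per list and comparison, the 3 nearest profiles per factor, and markers; any called list gene falls among them. Of the genes this rule names, 1 list gene is not reported here. The factors, lists and markers were chosen with earlier results of these data known. Positions come from GENCODE M21 (GRCm38, which mm10 names too) by gene symbol, and the authors may have used other gene models. Promoters are from RefSeq on GRCm38.p6.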

Additional observations from a re-analysis of the deposited data

How the results depend on the processing

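Myf5, Myod1 and Myog kept their direction under all alternatives in all 3 comparisons; Myog passed in 4 of them, as the report states: in Notch2 cKO against WT at 0.69 without WT Em4 (range over left-out libraries 0.41 to 0.69), and in Notch2 cKO against Notch1 cKO with only those groups (0.84) and without either WT library (0.81 to 0.88 over left-out libraries). The number of factors called was then 1, otherwise 0. Myf6 changed sign in Notch2 cKO against WT at the same sum of RPKM (0.069), without Notch2 cKO Em3 (0.16) and without WT Em4 (0.084; −0.27 to 0.16 over left-out libraries), and in Notch2 cKO against Notch1 cKO without Notch2 cKO Em4 (−0.084 to 0.34). In Notch1 cKO against WT, log2 ratio differences changed sign for Myog to Myf5 without WT Em4 (−0.26 to 0.12), Myog to Myf6 without WT Em2 (−0.092 to 0.0095) and Myf5 to Myf6 with RPKM + 1 (−0.036) and without WT Em4 (−0.21 to 0.27). The causes were not tested.

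Numbers of genes called by limma moved. For Notch2 cKO against WT (62) they were 0 without a filter (1693 at an unadjusted p under 0.05), 33 at a mean of 5 RPKM, 28 at the same sum, 4 with quantile normalization, 1 with the length trend removed, 36 without the eBayes trend, 0 with voom (808 unadjusted) and 13 to 287 with a library left out (13 without WT Em2, 287 without WT Em4). For Notch1 cKO against WT (8) they were 15 with a pseudocount of 0.1, 0 without a filter (722 unadjusted), 22 with median-of-ratios scaling, 3 at the same sum, 1 with quantiles, 0 with the length trend removed (286 unadjusted), 2 with voom and 1 to 5 with a library left out. For Notch2 cKO against Notch1 cKO (56) they were 0 without a filter (1710 unadjusted), 86 with median-of-ratios scaling, 27 at the same sum, 13 with quantiles, 0 with the length trend removed (909 unadjusted), 26 without the eBayes trend, 13 with voom and 35 to 67 with a library left out.

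No paired analysis was possible because the column names carry no replicate number, and the digits they share tie only 1 library of a group to 1 of another. The planned count test on recovered reads was not run, while limma voom on those reads was. List medians were alternatives added after seeing the data. With 2 libraries or 1 in a group, the spread comes mostly from other genes, and Myf6 is limited by its 56 to 117 reads.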
